A study of Mus musculus with 8 samples.

Results

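Nuclear-encoded subunits of the mitochondrial respiratory chain were followed in mouse retina, the neural layer of the eye that detects light. They were chosen by gene symbol, as protein-coding rows of the count table whose names begin with the prefixes of complex I (Ndufa, Ndufb, Ndufc, Ndufs, Ndufv), complex III (Uqcr), complex IV (Cox4i, Cox5, Cox6, Cox7, Cox8) or ATP synthase (Atp5), together with Sdha, Sdhb, Sdhc and Sdhd of complex II, Cyc1 of complex III and Cycs. Assembly factors of the Ndufaf series and pseudogenes were left out. The rule found 88 of the 54532 genes in the table: 36 of complex I, 4 of complex II, 9 of complex III, 1 for cytochrome c, 20 of complex IV and 18 of ATP synthase. Ndufa4 and its paralog Ndufa4l2 were placed with complex IV, to which the NDUFA4 protein belongs.

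The 8 libraries fell into 4 labelled sIVs, the series' abbreviation for small intracellular vesicles, and 4 labelled PBS, described as the control group. The titles number the replicates of either group 1, 3, 4 and 5. The labels gave no strain, genotype, age, sex, dose, route, time or injury model, and they did not say whether replicates came from separate animals, so p-values measure the spread between these samples, which may be partly technical. The comparison addressed which retinal transcripts differed after vesicles, in a series concerned with protection of retinal neurons.

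The respiratory chain passes electrons from NADH through complex I, or from succinate through complex II, to complex III, then by cytochrome c to complex IV, which reduces oxygen. The proton gradient built by complexes I, III and IV drives ATP synthase. A few core subunits are encoded by the mitochondrial genome and the others, followed here, by nuclear genes, many of which encode very small proteins. Photoreceptors, the most numerous cells of the mouse retina, pack mitochondria into their inner segments and have a high demand for ATP.

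Many of these genes have very short coding sequences, and values are later given by length, so 3 of these sequences are shown in full. Atp5e encodes the epsilon subunit of ATP synthase in 52 codons (chromosome 2, 174462506 to 174463996, minus strand), Cox7c a small subunit of complex IV in 63 codons (chromosome 13, 86045756 to 86046675, minus strand) and Ndufa1 an accessory subunit of complex I in 70 codons (chromosome X, 37187724 to 37191090, minus strand). Coordinates span the coding bases without the stop codon on mm10, from GENCODE M21; capitals mark the start and stop codons.
Atp5e: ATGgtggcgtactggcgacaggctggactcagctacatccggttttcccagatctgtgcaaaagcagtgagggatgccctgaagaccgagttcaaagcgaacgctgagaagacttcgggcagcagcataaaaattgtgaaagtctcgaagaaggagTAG
Cox7c: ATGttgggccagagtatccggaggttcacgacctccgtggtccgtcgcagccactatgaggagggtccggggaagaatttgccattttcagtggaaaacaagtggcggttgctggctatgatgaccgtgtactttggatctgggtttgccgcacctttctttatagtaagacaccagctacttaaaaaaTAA
Ndufa1: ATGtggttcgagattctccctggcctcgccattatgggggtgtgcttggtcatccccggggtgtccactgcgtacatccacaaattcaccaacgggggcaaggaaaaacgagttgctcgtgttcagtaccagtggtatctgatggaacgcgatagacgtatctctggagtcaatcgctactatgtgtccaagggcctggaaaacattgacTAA

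Of the 88 genes, 83 passed the filter on low counts. The other 5 were the muscle-type or testis-type complex IV isoform genes Cox6a2, Cox7b2, Cox8b and Cox8c and a second Atp5o entry on chromosome 16, which is listed at a count of 0 in all 8 libraries, as is Cox8c. Genes are compared here in CPM, counts scaled to normalised library size, and levels of different genes in the deposited FPKM, fragments scaled to listed gene length and library total.

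Transcripts of every complex were present at moderate to high levels. By mean FPKM over the 8 libraries the tested subunits spanned 1.27 to 314. The highest were in complex IV. Cox8a, a small subunit of that complex, averaged 372 ± 205 FPKM in sIVs retinas and 256 ± 24.1 FPKM in PBS retinas, and Cox6a1, another, 361 ± 225 and 236 ± 26.2 FPKM (SD, n = 4 each). In ATP synthase, the catalytic beta subunit gene Atp5b averaged 237 ± 35.4 FPKM in sIVs retinas and 214 ± 8.25 FPKM in PBS retinas, and the alpha subunit gene Atp5a1 215 ± 32.7 and 195 ± 7.37 FPKM (SD, n = 4 each). Mean FPKM ran from 4.98 to 102 in complex I, from 28.5 to 69.3 in complex II and from 39.4 to 75.9 in complex III, and Cycs stood at 12.2. How the listed length was built is not given in the sources used here. For Atp5e it is 1756 bases while the coding transcript has 421, so its FPKM would be higher by transcript length. Levels of different genes in FPKM depend on these listed lengths.

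Between sIVs and PBS retinas, no subunit passed the test. With edgeR's quasi-likelihood test and Benjamini-Hochberg adjustment at 0.05, 0 of 83 members and 0.0% of the 17004 genes tested were called. At an unadjusted p under 0.05 there were 0 members, against 1.5% of all genes, or 1.04% counting only those higher in sIVs. DESeq2 and limma-voom with sample quality weights also called 0. At an unadjusted p under 0.05, DESeq2 had 5 of 86 members and 494 of 31741 genes, and limma-voom 0 of 83 members and 455 of 17004 genes. The groups overlapped for all 83 members, while 1.08% of all genes tested did not overlap with sIVs higher and 0.929% with sIVs lower. The log2 fold change, sIVs over PBS, was nevertheless above 0 for 80 of 83 members, against 51.3% of all genes, with a median of 0.43, against 0.01 over all genes tested.

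A single library carried most of that median. In sIVs replicate 4, the members stood at a median of 1.23 log2 units above their mean in the other 7 libraries, against 0.01 over all genes tested. It was the highest of the 8 libraries for 79 of 83 members (95.2%), against 35.7% of all genes, and 62 members were at least 2-fold above the mean of the others (74.7%, against 8.49% of all genes). The summed CPM of all 88 genes was 7316, 6353, 13846 and 7919 in sIVs replicates 1, 3, 4 and 5, and 6514, 6702, 7311 and 7111 in PBS replicates 1, 3, 4 and 5. Replicates 1, 3 and 5 of the sIVs group thus lay within or near the PBS range, and replicate 4 far above it. Without sIVs replicate 4, 63 of 83 members had a positive log2 fold change (75.9%, against 50.3% of all genes) and the median was 0.05.

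**Figure D1:**
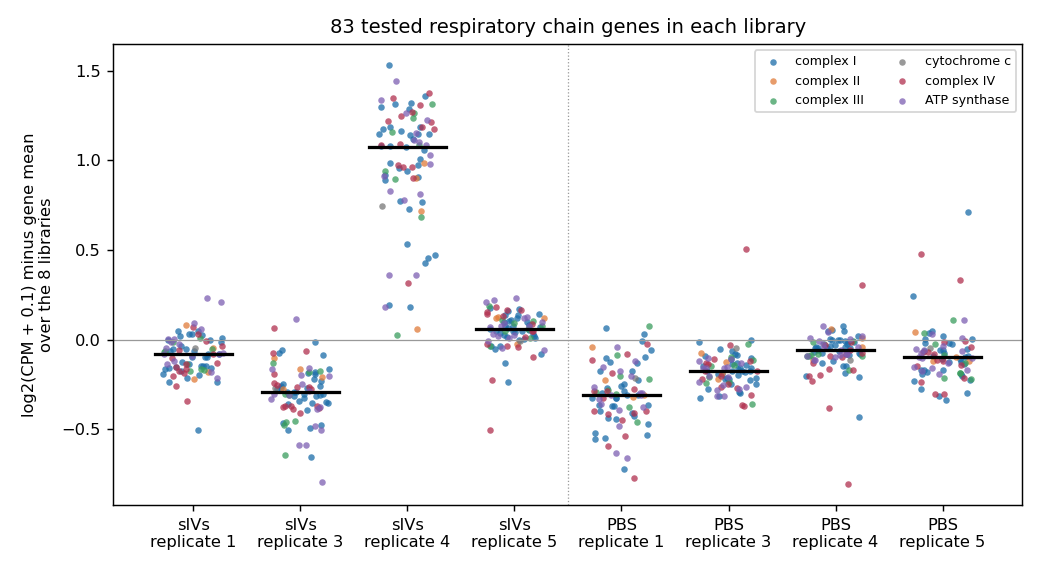
Log2(CPM + 0.1) minus the gene's mean over the 8 libraries (vertical axis) for the 83 tested genes, by library; each point is a gene coloured by complex and black bars are medians. The points of sIVs replicate 4 stand apart, while medians in the other 7 libraries lay between -0.31 and 0.06.

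Genes that mark the retinal pigment epithelium, a pigmented sheet apposed to photoreceptor tips, moved with the same library. The 10 markers summed to 41.7, 12.9, 457 and 73.7 CPM in sIVs replicates 1, 3, 4 and 5, and to 12.0, 46.9, 17.6 and 67.9 CPM in PBS replicates 1, 3, 4 and 5. Of the 8 markers tested, 6 were highest in sIVs replicate 4, where 35.7% of all genes tested were highest. The largest there were Rgr, Ttr and Rpe65, at 153, 150 and 60.2 CPM. The pigment genes Tyrp1 and Pmel stood at 5.57 and 1.90 CPM there, below 6.46 CPM in sIVs replicate 5 and 4.21 CPM in PBS replicate 5. The part of the pigment epithelium markers in the result was not tested. Retinal markers were present throughout: the 5 rod markers summed to 31839 to 52366 CPM in sIVs and 26934 to 51432 CPM in PBS retinas, with sIVs replicate 4 at 41258. Other retinal markers stood apart in that library. The 3 bipolar cell markers summed to 809 CPM in sIVs replicate 4, against 900 to 1192 CPM in the other 7 libraries, and the 3 amacrine cell markers to 390 CPM, against 429 to 471 CPM. The 3 ganglion cell markers summed to 508 CPM there, against 339 to 374 CPM, and Sncg among them stood at 149 CPM, against 57.8 to 71.4 CPM. The 4 cone markers summed to 815 CPM there, against 530 to 756 CPM, with 3 of the 4 highest in that library. The 3 Mueller glia markers summed to 3234 CPM, against 2768 to 3003 CPM, with 1 of the 3 highest there. The part of these markers in the result was not tested either. Lens markers summed to at most 0.42 CPM in any library. In bulk tissue, more cells of a type and more RNA per cell cannot be told apart. Total counts were 13803958 to 16622259 per library, and the limma-voom quality weight was 0.0913 for sIVs replicate 4, against 0.637 to 2.74 for the others.

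The complexes differed in how large the step in sIVs replicate 4 was. Its summed CPM was 2.53-fold the mean of the other 7 libraries for complex IV, 2.09-fold for complex I, 2.04-fold for complex III, 1.81-fold for Cycs, 1.71-fold for ATP synthase and 1.44-fold for complex II. These sums weight the most abundant genes, and as medians over members the steps were 1.35 log2 units in complex IV, 1.24 in complex III, 1.22 in complex I, 1.18 in ATP synthase and 0.93 in complex II, with the single gene Cycs at 0.85. The order of complexes I and III, and the place of Cycs against ATP synthase and complex II, therefore depended on the summary, and no test compared the complexes.

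In complex I, which takes electrons from NADH, the log2 fold change was positive for 35 of 36 genes with all libraries (median 0.42) and for 26 without sIVs replicate 4 (median 0.05). Ndufa2, an accessory subunit gene on chromosome 18, stood at 43.1, 33.6, 137 and 51.9 CPM in sIVs replicates 1, 3, 4 and 5, against 32.2, 39.8, 45.8 and 41.3 CPM in PBS replicates 1, 3, 4 and 5. It had the largest step of all members in replicate 4, at 1.75 log2 units, with the other sIVs libraries inside or slightly beyond the PBS range. Its log2 fold change was 0.74 ± 0.40 (SE; edgeR adjusted p = 0.81), and 0.11 without that library.

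Ndufc1 and Ndufa11, both accessory subunit genes, had the smallest p of complex I. Ndufc1 stood at 42.6, 44.7, 114 and 48.1 CPM in sIVs replicates 1, 3, 4 and 5, against 31.7, 43.1, 42.0 and 36.8 CPM in PBS replicates 1, 3, 4 and 5 (log2 fold change 0.70 ± 0.31 SE, 0.23 ± 0.12 without sIVs replicate 4). Ndufa11 had a log2 fold change of 0.68 ± 0.32 (SE) and 0.19 without sIVs replicate 4. The shortest tested gene, Ndufa1, whose coding sequence is printed above, stood at 22.6, 17.7, 58.5 and 25.4 CPM in sIVs retinas and 15.6, 19.5, 16.8 and 23.1 CPM in PBS retinas in the same replicate order. All 3 genes shared the pattern of Ndufa2, with replicate 4 alone far above the other libraries.

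Ndufs1, which encodes the largest iron-sulfur subunit of complex I, hardly took part. It stood at 104, 99.6, 115 and 98.2 CPM in sIVs replicates 1, 3, 4 and 5, against 100.01, 94.8, 97.4 and 96.5 CPM in PBS replicates 1, 3, 4 and 5, a log2 fold change of 0.10 ± 0.09 (SE; 95% confidence interval -0.07 to 0.275). Ndufab1, the mitochondrial acyl carrier protein gene, had a log2 fold change of 0.12 ± 0.15 (SE). Ndufa12, an accessory subunit gene, was the only one of complex I below 0, at -0.08 ± 0.33 (SE), with 21.6 CPM in PBS replicate 5 against at most 13.6 CPM in the other PBS libraries. Without PBS replicate 5 its log2 fold change was 0.19, and without sIVs replicate 4 it was -0.45.

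Complex II, which oxidises succinate and is also an enzyme of the tricarboxylic acid cycle, is encoded wholly in the nucleus, and its 4 subunits split. Sdha, the flavoprotein that binds succinate, stood at 308, 272, 303.7 and 286 CPM in sIVs replicates 1, 3, 4 and 5, and at 283, 277, 303.8 and 299 CPM in PBS replicates 1, 3, 4 and 5. The groups covered nearly the same range, and the log2 fold change was 0.01 ± 0.09 (SE; 95% confidence interval -0.18 to 0.19). Sdhb, the iron-sulfur subunit gene, stood at 133 CPM in sIVs replicate 4 and at 53.7 to 73.2 CPM in the other 7 libraries. The membrane anchor genes Sdhc and Sdhd likewise stood at 170 and 92.2 CPM there, against at most 99.1 and 60.8 CPM elsewhere. Log2 fold changes were 0.40 ± 0.26 for Sdhb, 0.45 ± 0.22 for Sdhc and 0.29 ± 0.19 for Sdhd (SE), and 0.04, 0.15 and 0.05 without sIVs replicate 4.

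Complex III, which hands electrons to cytochrome c, held the member with the smallest step. Uqcrc2, a core protein gene, stood at 101, 93.5, 104 and 99.8 CPM in sIVs replicates 1, 3, 4 and 5, against 108, 101, 102 and 111 CPM in PBS replicates 1, 3, 4 and 5 (log2 fold change -0.08 ± 0.09 SE; 95% confidence interval -0.25 to 0.09). Uqcrc1, the partner core protein gene, stood at 217, 198, 419 and 237 CPM in sIVs replicates 1, 3, 4 and 5, against 193, 191, 212 and 198 CPM in PBS replicates 1, 3, 4 and 5. The 2 core protein genes thus diverged in replicate 4, at 1.02-fold and 2.03-fold the mean of the other libraries. The log2 fold change of Uqcrc1 was 0.43 ± 0.22 (SE), and 0.13 without that library. Uqcrfs1, the Rieske iron-sulfur protein gene, and Uqcrh, the hinge protein gene, had log2 fold changes of 0.43 ± 0.25 and 0.55 ± 0.29 (SE), and 0.10 and 0.12 without sIVs replicate 4. Cycs, the somatic cytochrome c gene, stood at 40.2, 34.4, 69.8 and 41.4 CPM in sIVs retinas and 35.8, 40.3, 38.4 and 40.2 CPM in PBS retinas, with a log2 fold change of -0.002 without sIVs replicate 4.

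**Figure D2:**
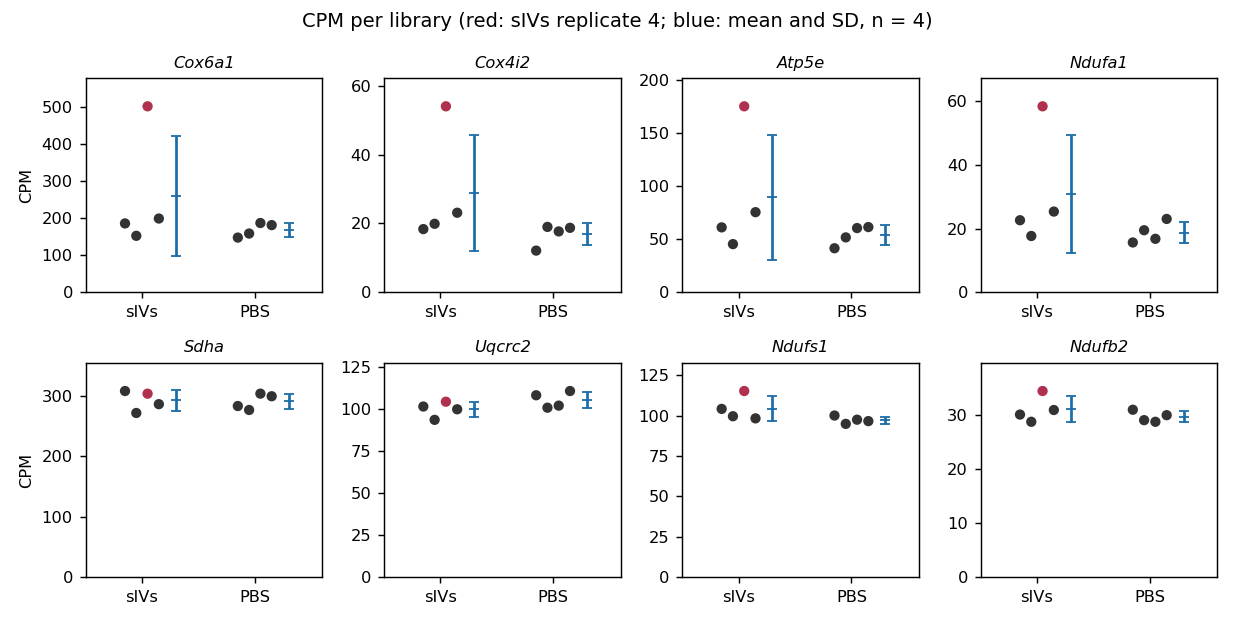
CPM in each library (vertical axis, from 0) for 4 genes with a large and 4 with a small step in sIVs replicate 4 (red points); blue marks give the mean and SD of the 4 libraries of a group. Cox6a1 reached 502 CPM in sIVs replicate 4 while Sdha stood at 303.7 CPM there, inside its range in the other libraries.

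Complex IV, cytochrome c oxidase, had a median of 0.53 over 16 tested genes, with 15 of them positive; without sIVs replicate 4 it was 0.08, with 12 positive. It was the largest median of the complexes with all libraries, but with the gene-length trend removed it was 0.235, below 0.26 in ATP synthase. Its tested genes also had the shortest median among the complexes, a listed length of 1119.5 bases. Cox4i2, the isoform of subunit 4 known from lung and oxygen-sensing cells, had the largest log2 fold change of all members, 0.77 ± 0.35 (SE; edgeR adjusted p = 0.81). It stood at 18.3, 19.9, 54.0 and 23.1 CPM in sIVs replicates 1, 3, 4 and 5, against 12.1, 19.0, 17.7 and 18.7 CPM in PBS replicates 1, 3, 4 and 5. Without sIVs replicate 4 the difference was 0.27 ± 0.17 (SE), and the groups still overlapped. Cox6a1 stood at 186, 152, 502 and 199 CPM in sIVs retinas, against 148, 159, 187 and 181 CPM in PBS retinas. Cox6c, another small subunit gene, had a log2 fold change of 0.54 ± 0.27 (SE), and 0.16 without sIVs replicate 4. Cox6b1, Cox7a2 and Cox8a had differences of 0.515, 0.61 and 0.55, and 0.05, 0.14 and 0.09 without it. Ndufa4 had 0.55 and 0.11, Cox7b 0.34 and 0.01, and Cox7a2l, whose protein links complexes III and IV into supercomplexes, 0.39 and 0.04.

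Because several complex IV subunits exist as tissue isoforms, the share of an isoform within its pair can be read within a library. Cox4i2 made up 15.9% ± 1.48 of the FPKM of Cox4i1 and Cox4i2 in sIVs retinas (SD, n = 4), against 12.2% to 16.2% in the 4 PBS libraries, with 16.3% in sIVs replicate 4. The share there lay inside the range of the other libraries, 12.2% to 17.8%, although both genes stepped up. These shares depend on the listed lengths. With counts divided by the length of the transcript with the longest coding sequence, a measure chosen after seeing the data, Cox4i2 made up 8.99% ± 0.904 in sIVs retinas and 7.84% ± 0.974 in PBS retinas (SD, n = 4 each), with 9.24% in sIVs replicate 4. By FPKM, Cox6b2, known from testis, made up 2.68% to 4.87% of its pair with Cox6b1, and Ndufa4l2, a paralog induced by low oxygen, 1.45% to 2.38% of its pair with Ndufa4. By transcript length these were 6.37% to 11.2% and 0.56% to 0.926%. The heart and skeletal muscle isoform Cox7a1 made up 0.972% to 3.16% of the FPKM of its pair with Cox7a2, or 0.75% to 2.45% by transcript length, at no more than 0.98 CPM, and its log2 fold change was -0.12 ± 0.40 (SE). Cox6a2 was at no more than 0.30 CPM and Cox8b at no more than 2.36 CPM in any library, and Cox7b2 had a single count in PBS replicate 3. Striated muscle markers summed to 7.22 to 11.7 CPM over all libraries.

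ATP synthase had 17 of 17 tested genes with a positive log2 fold change (median 0.46) and 16 of 17 without sIVs replicate 4 (median 0.07). Atp5e stood at 61.0, 45.2, 175 and 75.3 CPM in sIVs replicates 1, 3, 4 and 5, against 41.3, 51.6, 60.3 and 61.3 CPM in PBS replicates 1, 3, 4 and 5, a log2 fold change of 0.73 ± 0.38 (SE), and 0.17 without replicate 4. Atp5b, the most abundant member in CPM, stood at 1009, 868, 1245 and 990 CPM in sIVs retinas and 942, 872, 951 and 920 CPM in PBS retinas. Its step in replicate 4 was only 1.33-fold, like that of Atp5a1, while Atp5e stood 3.09-fold above the other libraries. Of the 3 genes that encode the identical mature c subunit of the rotor, Atp5g3 made up 53.1% ± 1.34 of their FPKM in sIVs and 54.5% ± 1.37 in PBS retinas, and Atp5g1 4.95% ± 0.333 and 5.32% ± 0.27 (SD, n = 4 each). By transcript length Atp5g3 made up 44.8% ± 1.12 in sIVs and 45.9% ± 1.35 in PBS retinas, and Atp5g1 11.3% ± 0.734 and 12.1% ± 0.562. Atp5g2 had a log2 fold change of 0.49 ± 0.28 (SE). Atp5s, which encodes a coupling factor, stood at 16.3, 15.0, 15.7 and 13.3 CPM in sIVs retinas and 12.2, 12.7, 14.04 and 12.1 CPM in PBS retinas, and its difference of 0.24 ± 0.13 (SE) was 0.21 without sIVs replicate 4.

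**Figure D3:**
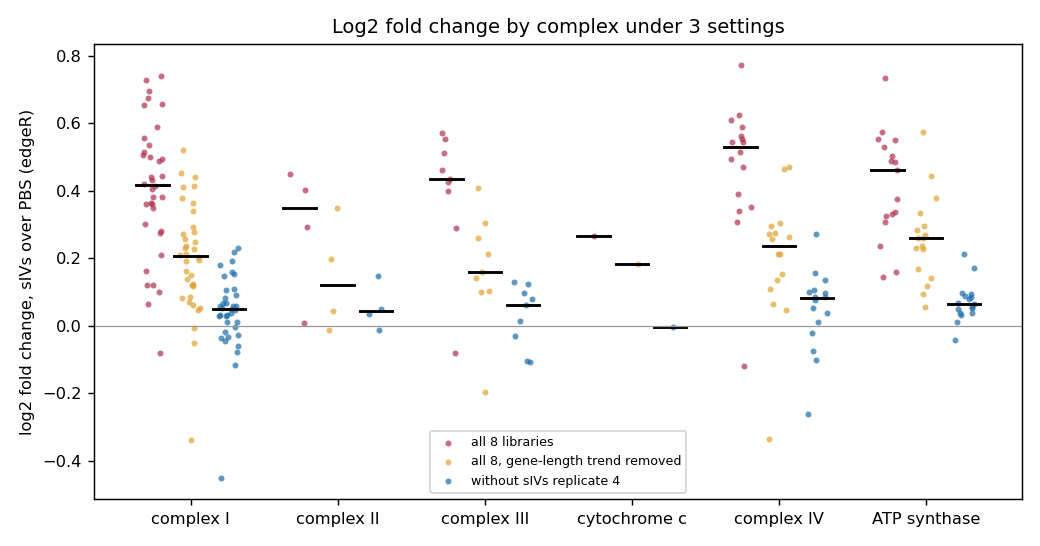
Log2 fold change of sIVs over PBS from edgeR (vertical axis) by complex for the 83 tested genes, with all 8 libraries, with the gene-length trend of each library removed, and without sIVs replicate 4; points are genes and black bars medians. Complex medians from 0.27 to 0.53 with all libraries lay between -0.002 and 0.08 without sIVs replicate 4.

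The step in sIVs replicate 4 was related to gene length, among the subunits and among other genes. Across the 83 members, its size had a Spearman correlation of -0.62 with listed gene length and -0.62 with the length of the longest coding sequence. Across 14222 protein-coding genes the correlation with gene length was -0.63. Genes share these libraries and are not independent replicates, so these values are descriptions. The 20 members of at most 1000 bases stood at a median of 1.37 log2 units above the other 7 libraries, against 1.13 for the 295 protein-coding genes of that length. The 13 members of 2001 to 3000 bases stood at 0.88, against 0.49 for 2187 genes, and the 8 members of 4001 to 6000 bases at 0.98, against -0.07 for 3515 genes.

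The members lay above other genes of their length class in all 7 classes, the longest of which held 3 members. By coding length the gap was likewise present in all 6 classes: 1.41 against 1.03 for coding sequences of at most 300 bases (21 members) and 0.51 against 0.08 for those of 1001 to 2000 bases (10 members). Members of long coding sequence, among them Sdha, Ndufs1, Uqcrc2, Atp5a1 and Atp5b, were among the 11 under 1.5-fold in replicate 4. Coding length did not order all members. Ndufb2, picked after its values were seen, has a coding sequence of 315 bases but stood only 0.21 log2 units above the other libraries. Uqcrc1, with 1440 coding bases, stood 1.02 above. By listed length both are long, at 5628 and 4135 bases. Protein-coding genes of 4001 to 6000 bases had a median of -0.07, far below Uqcrc1. Listed length thus did not order all members either. Cox7a1, with 535 listed and 267 coding bases, stood only 0.345 above the other libraries, at a low 0.851 CPM in sIVs replicate 4. Removing each library's length trend, fitted over all genes tested, left 77 of 83 members positive, against 51.0% of all genes, with a median of 0.21, and 0 called. With that trend removed and sIVs replicate 4 left out as well, 56 members were positive, against 50.8% of all genes, with a median of 0.03. That trend left short protein-coding genes, of at most 1000 bases, at a median of 0.15, beside 0.22 for the members of that length.

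**Figure D4:**
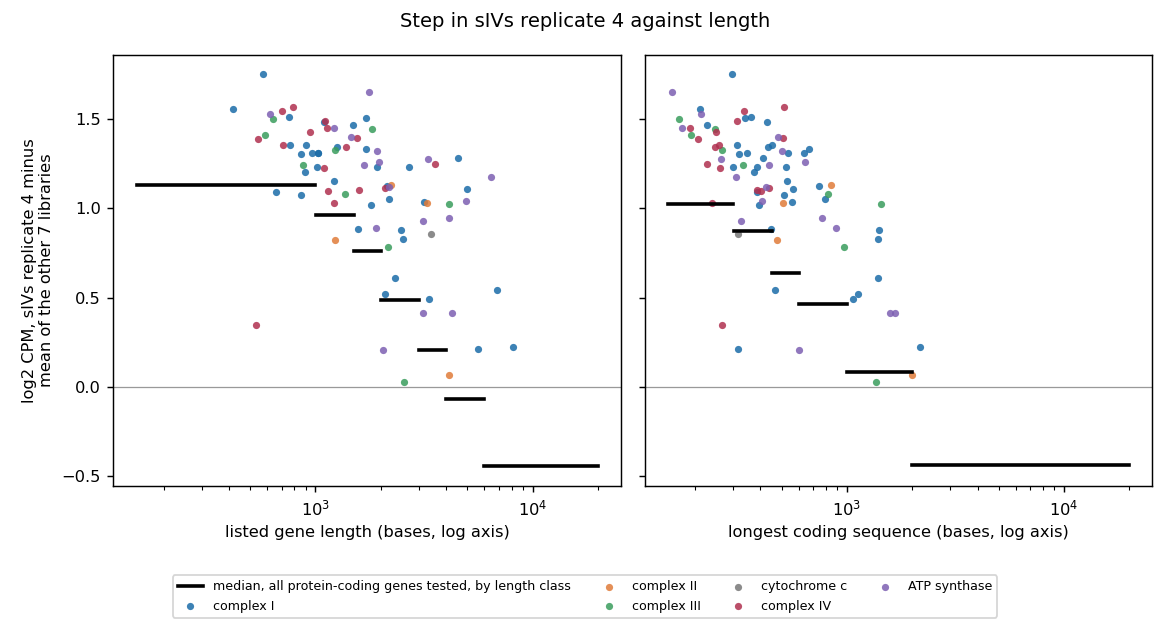
Log2 CPM in sIVs replicate 4 minus the mean of the other 7 libraries (vertical axis) against listed gene length (left) and longest coding sequence (right), both on log axes, for the 83 tested genes; black bars are medians of all protein-coding genes tested in each length class, drawn from 150 to at most 20000 bases. Members and other genes both stepped up more where they were short, and members of at most 1000 bases had a median of 1.37 against 1.13.

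Among the other 7 libraries the differences were smaller. The lowest library was sIVs replicate 3 for 35 and PBS replicate 1 for 34 of 83 members, with median deviations of -0.29 and -0.31 from the gene means. Without sIVs replicate 4, the Spearman correlation of the log2 fold change with gene length over members was -0.08, against -0.50 with all libraries. Over 14222 protein-coding genes it was -0.26, against -0.57, so a relation to length remained there. Deviations of the other 7 single libraries correlated with gene length over members at -0.23 (sIVs replicate 5) to 0.53 (PBS replicate 1), with 0.36 in sIVs replicate 3.

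Of the rest of the pathway, no gene passed the test. The 13 subunits encoded by the mitochondrial genome had a median log2 fold change of 0.19, with 10 positive, and summed to 22983, 22715, 30509 and 25634 CPM in sIVs replicates 1, 3, 4 and 5, against 22752, 23115, 22871 and 25159 CPM in PBS replicates 1, 3, 4 and 5. Their sum in replicate 4 was thus 1.29-fold the mean of the others, against 1.97-fold for the nuclear subunits. These sums weight the most abundant genes, and the 13 genes differed widely. Their steps in sIVs replicate 4 ran from -1.24 to 1.90 log2 units, with a median of 0.53. That library was the highest for 10 of the 13 and the lowest for 2. With the gene-length trend removed, the median of the 13 was -0.03, with 4 positive. Of these genes mt-Nd4l and mt-Co2 had the smallest p, with differences of -1.10 ± 0.49 and 0.68 ± 0.31 (SE), the first resting on 23.2 CPM in PBS replicate 5. The 44 tested assembly factors, which build the complexes without staying in them, had a median of 0.23, with 33 positive and 11 negative. Sdhaf4, an assembly factor of complex II, and Ndufaf7, one of complex I, had the smallest p, with differences of 0.63 ± 0.31 and 0.25 ± 0.13 (SE), and 0.19 and 0.17 without sIVs replicate 4.

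The 18 genes of the tricarboxylic acid cycle and pyruvate dehydrogenase, which supply the chain with electrons, had a median of 0.12, with 14 positive. Suclg1 and Sucla2, subunits of succinyl-CoA ligase, had differences of 0.365 ± 0.21 and 0.18 ± 0.12 (SE). The 21 tested genes of mitochondrial protein import had a median of 0.28, with 19 positive. Timm21 and Tomm5 had the smallest p among them. The 13 regulators of mitochondrial biogenesis had a median of 0.07, with 8 positive and 5 negative. Tfam, which packages mitochondrial DNA, and Twnk, the helicase of that DNA, had differences of 0.24 ± 0.15 and 0.205 ± 0.13 (SE). Ppargc1a, a coactivator of mitochondrial biogenesis that was singled out after its values were seen, stood at 55.3, 45.1, 30.2 and 32.5 CPM in sIVs retinas and 52.8, 43.1, 42.5 and 44.4 CPM in PBS retinas, so replicate 4 was the lowest library for it. The medians without sIVs replicate 4 were between 0.02 and 0.06 for these 5 lists.

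Promoters were searched for motifs of factors known to bind respiratory chain genes, in RefSeq windows from 250 bases before to 50 bases after the gene start (GRCm38.p6), which matched 68 member symbols with 73 windows. On either strand, GCATGCGC of NRF1 was in 15.1% of member windows and 2.71% of all 32851 windows, CCGGAAG of GABPA in 21.9% and 8.86%, AAGATGGC of YY1 in 12.3% and 2.75%, and TGACGTCA of CREB in 6.85% and 1.79%. Overlapping matches to a motif on both strands counted once per window. Such a match is a description of these letters and does not show binding. A pair of windows is shown, to print 1 window with these letters and 1 without. The pair does not stand for a relation of the motifs to the step in replicate 4, which was not tested. Cox6a1 (chr5:115348909-115349208, minus strand) held NRF1 and GABPA letters, and Sdha (chr13:74350191-74350490, minus strand) none of the 4 motifs. Capitals mark motif letters.
Cox6a1: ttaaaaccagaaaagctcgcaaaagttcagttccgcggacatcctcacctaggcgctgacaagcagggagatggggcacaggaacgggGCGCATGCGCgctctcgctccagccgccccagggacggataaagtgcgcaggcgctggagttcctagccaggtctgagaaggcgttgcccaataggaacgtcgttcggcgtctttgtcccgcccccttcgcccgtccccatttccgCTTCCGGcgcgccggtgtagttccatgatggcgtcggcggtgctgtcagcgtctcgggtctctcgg
Sdha: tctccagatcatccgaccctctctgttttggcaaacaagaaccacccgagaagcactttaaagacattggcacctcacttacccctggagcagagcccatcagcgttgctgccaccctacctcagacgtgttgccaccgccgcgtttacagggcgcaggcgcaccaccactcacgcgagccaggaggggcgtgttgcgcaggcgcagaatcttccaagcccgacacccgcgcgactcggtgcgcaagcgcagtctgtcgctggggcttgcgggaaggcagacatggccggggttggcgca

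Of the 83 tested genes, 36 overlap another gene in the table, and 11 rows are pseudogenes named after these families, which share sequence with their parents. Whether counting used strand is not given in the sources used here, so reads of overlapping or antisense genes cannot be told apart, and levels of these genes are uncertain to that degree.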

How the data were processed

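RNA from mouse retina was poly(A)-selected, made into libraries that mark strand and read from both ends at 150 bp, per the labels' protocols. The authors deposited raw counts per gene and FPKM values, and these FPKM equalled count over listed length and library total, up to a constant in each library. The submitters' processing notes name mm10 as the build. Aligner and counter: not given in the sources used here. The authors' deposited tables list gene length as another column, a number of bases.

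Groups and replicate numbers came from titles. The members, gene lists and the rule for named genes were chosen with earlier results of these data known. The rule took, for each complex, the 2 genes of highest FPKM and the 2 of smallest p, the 5 members of largest and 3 of lowest log2 fold change, the 3 shortest and 3 longest genes, the tissue isoforms, and the 2 genes of smallest p in each other list. Ndufb2, Cox7c and Ppargc1a fell outside the rule and were chosen after their values were seen.

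Genes kept by filterByExpr (17004) were tested with edgeR 4.0.16 (R 4.3.3) by the quasi-likelihood F test, two-sided, with TMM scaling. The design held group alone, and p-values were adjusted by Benjamini-Hochberg with a threshold of 0.05. Standard errors are the absolute log2 fold change over the square root of F, so 95% intervals are approximate. Per-library steps used log2 CPM with a prior count of 2. Alternatives used DESeq2 1.42.0, limma-voom and limma on log2 FPKM (limma 3.58.1), other scalings and filters, a replicate block, each library left out and a lowess length trend (span 0.3) as offset. Coding lengths came from GENCODE M21. The fits were tested on simulated counts, the length offset also on counts with a known length trend. No 2 replicates agreed within counting noise (lowest chi-square per degree of freedom 6.22).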

Additional observations from a re-analysis of the deposited data

Results flagged for a closer look

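In 4 libraries of a group, a library was marked when its gap to the nearest other, over the group's range, passed Dixon's critical value at 95%, which chance does for about 1 in 20 groups. Of 83 tested members, 27 were marked in the sIVs group, all with sIVs replicate 4 highest. In the PBS group 2 were marked, both with PBS replicate 1 lowest. Marks were not counted over all genes tested, so 27 of 83 cannot be read as particular to these genes. The highest of the 8 libraries was sIVs replicate 4 for 35.7% of all genes and 95.2% of members. Among the named genes the CPM of sIVs replicate 4 was 502 for Cox6a1, 379 for Cox8a, 244 for Cox6c, 202 for Uqcrh, 201 for Ndufb11, 183 for Atp5g2, 157 for Cox6b1 and 153 for Cox7a2. It was 114 for Ndufc1, 97.9 for Ndufa11, 54.0 for Cox4i2, 22.6 for Ndufa12 and 4.58 for Ndufa4l2. Summed over complex IV it was 3034 CPM. In PBS replicate 1, Cox7b stood apart at 37.0 CPM, below 46.6 to 47.9 CPM in the other PBS libraries. Members share their libraries, so these marks are not independent of each other.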

How the results depend on the processing

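No member and no gene passed under any of the alternatives run, with between 0 and 38 members at an unadjusted p under 0.05. The most were without sIVs replicate 3, 38 of 84 members beside 958 of 17338 genes. The members' median log2 fold change was 0.05 to 0.59 when each library was left out, lowest without sIVs replicate 4, and members with a positive value numbered 63 to 82. With limma-voom quality weights, which gave sIVs replicate 4 a weight of 0.0913, 50 members were positive with a median of 0.015. Without sIVs replicate 4 and with the length trend removed, a setting chosen after seeing the data, 56 were positive with a median of 0.03. The correlation of difference in mean log2 CPM with gene length over members was -0.41, and -0.49 to -0.05 with each library left out; with coding length, chosen later, it was -0.46.

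The median over all genes tested, 0.0093, was 0.0034 with RLE scaling, -0.0066 without a count filter, -0.012 in DESeq2, -0.0023 in limma-voom, -0.00034 and -0.0011 on log2 FPKM with pseudocounts of 1 and 0.1, and 0.0041 with the length trend removed; it was 0.00088 to 0.011 when each library was left out. Among the 38 named genes tested, the sign turned under limma-voom for Sdha (-0.025), Atp5g3 (-0.063), Sdhb (-0.019), Cox7b (-0.104), Ndufa2 (-0.005), Cycs (-0.048), Ndufab1 (-0.074) and Atp5g1 (-0.141). Sdha also turned on log2 FPKM (-0.002 at both pseudocounts) and with the length trend removed (-0.012). With each library left out, it turned among these 38 for Sdha (-0.021 to 0.042), Ndufa12 (-0.451 to 0.185), Cox7a1 (-0.352 to 0.067), Cycs (-0.002 to 0.385), Ndufab1 (-0.046 to 0.209), Atp5g1 (-0.041 to 0.478) and Cox6b2 (-0.101 to 0.673). Members that are not named turned too, as the counts of positive values show. The cause was not tested.

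Libraries of the same number correlated in their deviations from the group means at 0.596, 0.0246, 0.227 and 0.514 for replicates 1, 3, 4 and 5, so the numbers, with replicate 3 under 0.1, were not taken as pairs. Of the 8 libraries, 6 correlated best with their own number, all but those numbered 3, a hint from the data and not from the design. With the replicate block, 0 genes passed, 4 of 83 members and 588 of 17004 genes had an unadjusted p under 0.05, 80 members were positive and their median was 0.33. With 4 libraries a group, differences within the spread of single libraries were not detectable at this depth of replication.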
